A study of Zea mays with 168 samples.

Results

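The 200 spots described here are those on which the maize inbred line 250 stood farther from 3 other inbred lines than any of those lines did, on cDNA arrays hybridised with RNA from primary roots. The level of a spot is the authors' log2 value after the median of its channel was subtracted, and the deviation of a line is its mean level minus the mean of the other 3 line means. Of 12160 spots, 11029 carried an identifier found on no other spot, and 10829 of these were left as candidates once the 200 brightest were set aside. The largest absolute deviation belonged to line 250 on 1547 candidates (14.3%), against 1816, 3037 and 4429 candidates for lines 005, 301 and 002. With values listed at exactly 0 taken as missing, the count was 1739 for line 250 and 1547, 2709 and 4834 for lines 005, 301 and 002, so line 250 no longer had the fewest. The 200 with the largest deviation of line 250 are the members, 96 of them higher and the others lower in that line. The members were chosen by these deviations, which are therefore given as a description and carry no test.

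Maize is bred as crosses between inbred lines, and an inbred line carries the same allele of nearly every gene on both chromosome copies. In a hybrid both parental alleles share the same cell, and a transcript can lie at the mean of the parents, near one of them or outside both. The primary root is the first root of the seedling and has long served for comparing young hybrids with their parents before the shoot has grown. Each spot holds DNA copied from an expressed sequence tag, a partial read of a cDNA clone, and reports the RNA of its gene and of close relatives that hybridise with it.

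The 16 genotypes were the inbred lines 002x002, 005x005, 250x250 and 301x301, named UH002, UH005, UH250 and UH301 in the deposited notes, and the 12 reciprocal hybrids between them. In a hybrid such as 250x301 the labels do not say which parent was the mother, and it is written here with 250 named first. The labels give no mutation, transgene or treatment for any of them. Seeds germinated in water, roots were taken after 3.5 days, and about 20 roots were pooled for a replicate. RNA of 1 genotype was labelled with Cy3 and that of another with Cy5 on each slide, so that each of 84 slides carried 2 samples, and 76 slides remained after the 8 that the choice of members leaves out. These held 16 samples of 250x250, 16 of 002x002, 14 of 005x005, 19 of 301x301 and 5 to 9 of each hybrid. The number of arrays limits the precision of every value. No marker list could be matched to the spots, so the labelled tissue was not checked against markers.

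Some slides stood apart. Both channels of a slide moved together, with a correlation of 0.88 among hybrid samples once the presence of line 250 was taken into account, so a sample of 250x250 carries its slide as well as its genotype. On slide 292, which held 250x250 (replicate 77) and 250x002, many spots were listed at exactly 0 in the authors' log2 values, which is a level of -10.1 for the line. All but 1 of them lay in 4 of the 32 print blocks, the groups of 380 neighbouring table rows, namely blocks 1, 9, 17 and 25. On slide 999, which held 301x301 and 301x002, the candidates of the same 4 blocks were all listed at 0. Spots sharing an identifier agreed only in part: over 402 identifiers on 2 or 3 spots, the rank correlation of the mean level of the first and second spot was 0.226. The identifiers below are therefore the names of spots as deposited.

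Among the lower members, 45 were listed at 0 on slide 292. Their deviation had a median of -0.73, and with values of 0 taken as missing it was -0.29. All 45 kept a deviation below 0, but only 3 of them would then be members. All 26 members of block 25 belonged to this set, in a block with 348 candidates (7.47%), and block 17 added 13, block 9 added 4 and block 1 added 2. The set was dim, with a median level of -0.45, against 1.64 for the other 59 lower members, 0.63 for the 96 higher members and -0.02 for all candidates. Those 59 all stayed members with values of 0 as missing, as did 95 of the 96 higher members.

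**Figure D1:**
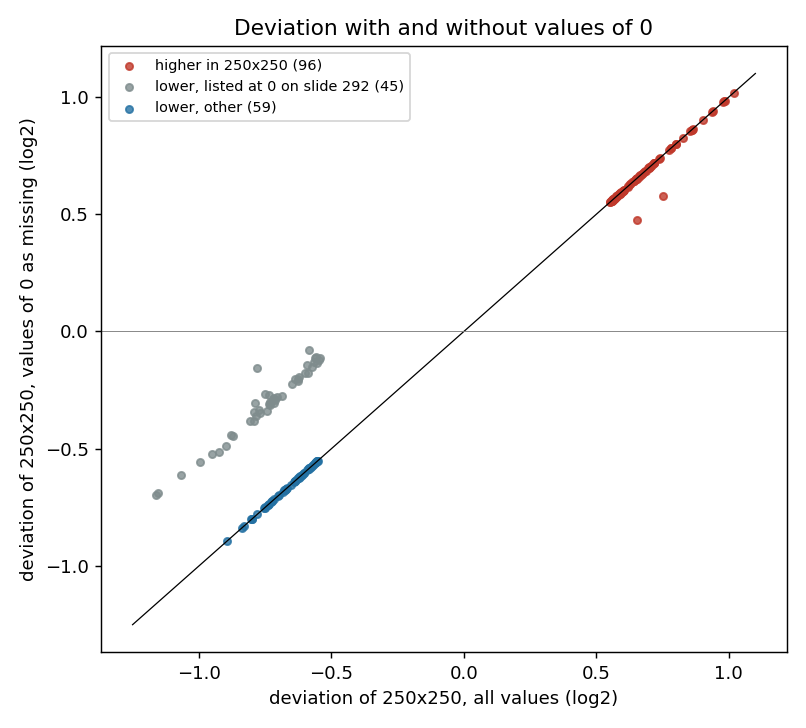
Each point is 1 member, with the deviation of 250x250 from the other lines on the log2 scale from all values (horizontal) and with values of 0 as missing (vertical); the line marks equality. The 45 lower members listed at 0 on slide 292 moved from a median of -0.73 to -0.29, while the other 59 lower members and nearly all higher members lie on the line.

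**Figure D2:**
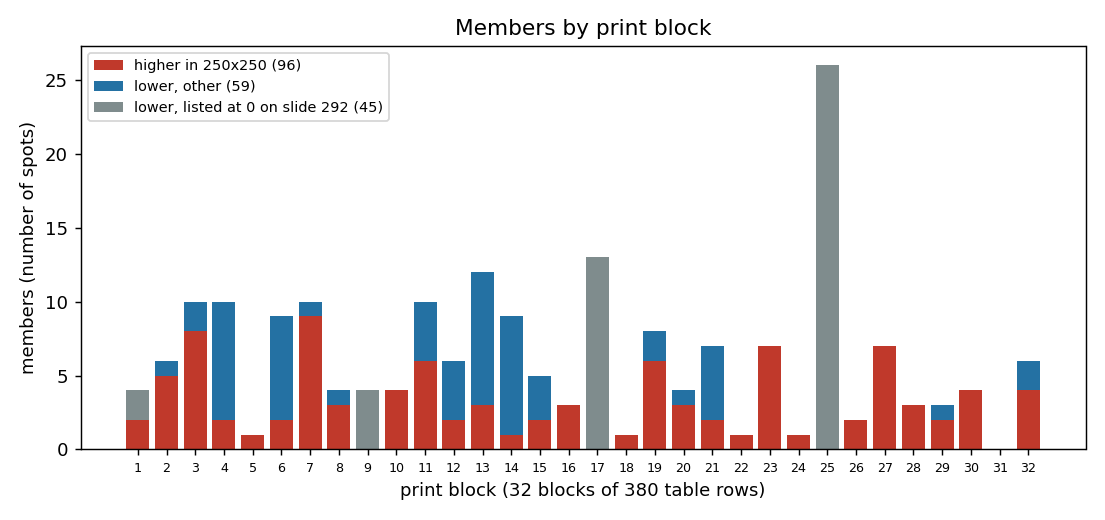
Bars count the members in each of the 32 print blocks, split into those higher in 250x250, those lower and listed at 0 on slide 292, and other lower members. The members listed at 0 lie in blocks 1, 9, 17 and 25 only, with 26 of the 45 in block 25.

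AI734304 had the largest deviation of all members, -1.16, and its values show how slide 292 entered the list. Its level in 250x250 ran from -10.08 to 2.85 with a median of 0.18, and without slide 292 the lowest value was -0.88. The medians in the other lines were 1.09 for 002x002, 0.86 for 005x005 and 0.75 for 301x301, each with samples on both sides of the median of 250x250. With values of 0 as missing its deviation was -0.70. AI947513 (-1.15, and -0.69 with values of 0 as missing) and AI619113 (-1.07 and -0.61) behaved alike, and these are the 3 of the 45 that stayed members. The next members of this kind, AI629846, AI737288, AI737371, AI947705, AI622426 and AI737424, had deviations of -0.996 to -0.87 and of -0.56 to -0.44 with values of 0 as missing. The last member, AI947840, was also listed at 0 on slide 292, with a deviation of -0.545 that became -0.11. The first spot outside the list, AI586830, had a deviation of -0.544, so the edge of the list is not a gap in the values.

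AI603703 was the one higher member on which all 16 samples of 250x250 lay above the mean of the other line means. Its level in 250x250 was lowest at 1.44, with a median of 2.17 and a highest value of 3.43. The mean was 2.09 ± 0.56 (SD, n = 16), against 0.93 ± 0.80 (SD, n = 16) in 002x002, 1.06 ± 0.97 (SD, n = 14) in 005x005 and 1.33 ± 1.15 (SD, n = 19) in 301x301. The samples of the other lines reached up to 2.23, 2.43 and 2.67, so the groups overlapped, and no sample of line 250 was among the low ones. AI738321 had the largest positive deviation, 1.02, from 2.30 ± 1.08 (SD, n = 16) in 250x250 against line means of 1.30, 1.14 and 1.40. Its 3 highest samples, at 4.45, 3.96 and 3.85, came from slides 918, 920 and 917.

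AI942048 was the brightest of the steadier higher members. It stood at 2.88 ± 1.08 (SD, n = 16) in 250x250, and 14 samples lay above the mean of the other lines, whose means were 1.74, 1.86 and 2.10. AI491516 (1.42 ± 0.98 against means of 0.53, 0.28 and 0.76) and BE056253 (1.83 ± 0.82 against 0.47, 0.90 and 1.29) also had 14 of 16 samples on that side. The other members among the 10 largest positive deviations, AI491658, AI629767, AI855309, BM073284 and AI621754, had deviations of 0.86 to 0.98 with 10 to 14 samples on their side. AI855309 varied most, from 0.66 to 7.02 within 250x250. The files used here give none of these spots a gene name or a role.

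Over the 96 higher members, 9 to 16 of the 16 samples lay on the side of the deviation (median 12), and 23 members had 14 or more. The list median of single samples, taken on levels from which each spot's mean over the 16 genotypes was subtracted, was highest on slides 918, 920 and 917 (1.78, 1.23 and 1.16). It was below 0 on slides 292, 28, 945 and 34. The 250x250 channels of slides 917, 918 and 920 had an SD over spots of 1.55 to 1.56, as did slides 38 and 59. On the other slides of 250x250 it was 1.18 to 1.29, apart from 2.93 on slide 292. The part of this spread was not tested. The deviation also moved with the slide numbers, which fall into ranges. With values of 0 as missing, the median deviation of the higher members was 0.42 on slides 0 to 61, 0.46 on slides 273 to 309 and 0.96 on slides 916 to 999. It was above 0 for 93, 79 and 95 of the 96 in these ranges. The range from 471 to 561 lacks a line and gives no value, and the labels do not say what the ranges stand for.

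AI855198 led the lower members that were not listed at 0. Its level in 250x250 ran from -0.16 to 2.79 with a median of 1.63 and a mean of 1.58 ± 0.74 (SD, n = 16). The means were 2.69 ± 0.87 (SD, n = 14) in 005x005 and 2.73 ± 1.14 (SD, n = 19) in 301x301. In 002x002 it was 1.99 ± 2.21 (SD, n = 16), but the median there was 1.59, and a single sample reached 9.51. Line 250 was thus below lines 005 and 301 and had nearly the same median as line 002. In all, 28 of these 59 members had 14 or more samples of 250x250 below the mean of the other lines, and on 2 of them, AW438087 and AI861636, all 16 were, a pair singled out after their values were seen. By range the median deviation of the 59 was -0.31, -0.89 and -0.60, with 50, 59 and 57 below 0.

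AW400087 was the only member that the RefSeq gene table named, as LOC100500995, a long non-coding RNA, out of 6 candidates with a name. Its level was 1.91 ± 0.87 (SD, n = 16) in 250x250, against 2.67 ± 1.08 (SD, n = 16) in 002x002, 2.24 ± 0.67 (SD, n = 14) in 005x005 and 2.69 ± 1.14 (SD, n = 19) in 301x301. Among the hybrids with line 250, its median ran from 1.83 in 301x250 to 2.67 in 250x002. In the hybrids without it, the median ran from 2.08 in 002x005 to 3.03 in 005x301, so the 2 kinds of hybrid overlapped. Lists of genes by function could not be applied, because the table holds no descriptions.

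Across genotypes, the higher members did not separate the hybrids that carry line 250 from the rest. Their list median had a median over samples of 0.42 in 250x250, from -0.28 to 1.78. The other lines lay at -0.27 (002x002), -0.21 (005x005) and -0.07 (301x301). Among hybrids with line 250, 301x250 reached 0.43, 250x301 0.16, 002x250 0.11 and 005x250 0.05. In contrast, 250x005 stood at -0.54, the lowest of the 16 genotypes, and 250x002 at -0.22. The 6 hybrids without line 250 lay between -0.19 and 0.09. All 5 samples of 250x005 were below 0, from -0.71 to -0.32.

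The 59 lower members gave -0.60 in 250x250, with samples from -1.21 to 0.43. The hybrids with line 301 came closest, at -0.44 in both 301x250 and 250x301, and all 8 samples of 301x250 were below 0. The medians were -0.33 in 250x002, -0.09 in 002x250, -0.09 in 250x005 and 0.09 in 005x250. The hybrids without line 250 ran from -0.22 in 002x301 to 0.56 in 301x005. Neighbouring genotypes in this order overlapped, with SDs over samples of 0.29 to 1.06 in the hybrids.

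**Figure D3:**
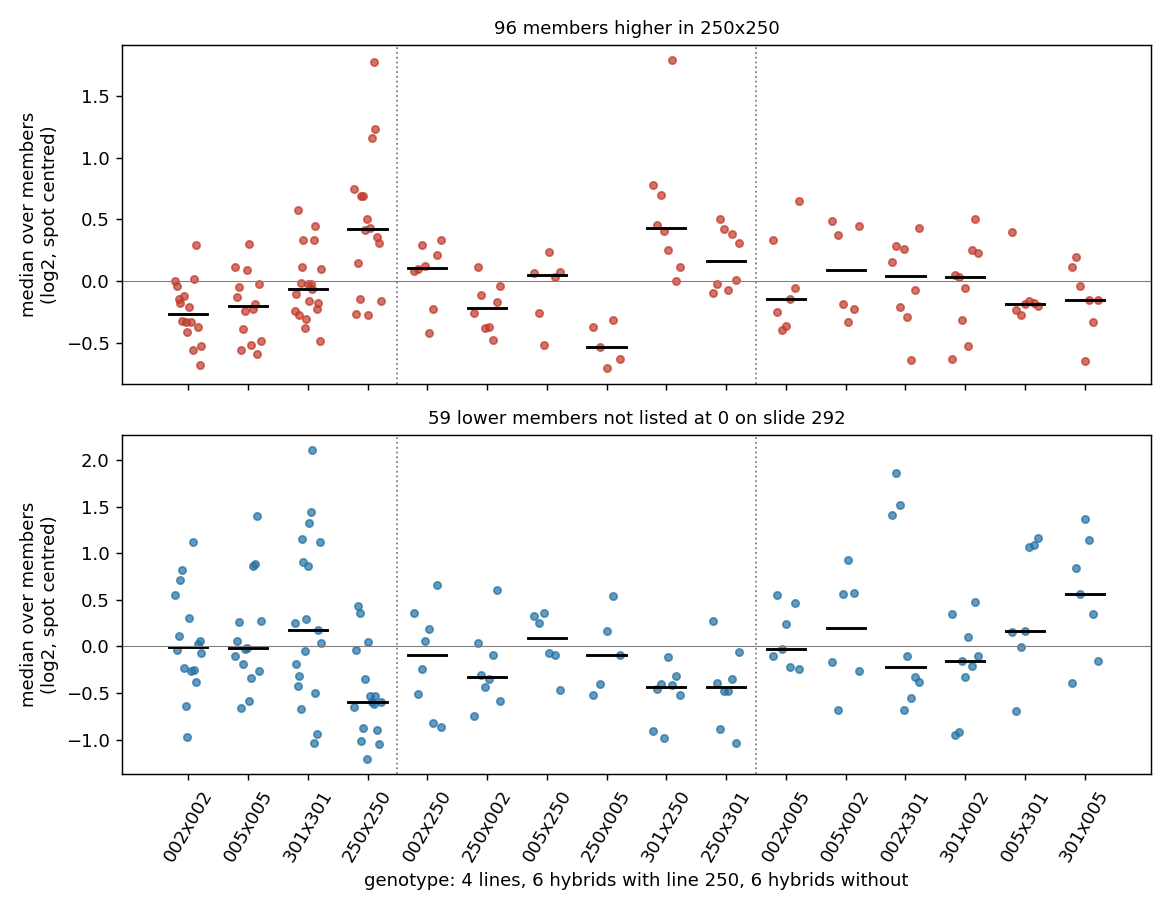
Each point is 1 sample, giving the median over the 96 higher members (top) or the 59 lower members not listed at 0 on slide 292 (bottom), on the log2 scale relative to each spot's mean over the 16 genotypes; bars are medians over samples, and dotted lines separate lines, hybrids with line 250 and hybrids without. 250x250 has the lowest median in the bottom panel (-0.60), while in the top panel 301x250 (0.43) lies as high as 250x250 (0.42).

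These levels differed between samples with different partners on the slide, which also differ in slide range and in the hybrids they hold, and the part of the partner was not tested. Among hybrids with line 250, the list median of the 59 lower members was -0.43 over 16 samples that shared a slide with 250x250, -0.41 over 15 that shared it with another line and -0.11 over 12 that shared it with a hybrid. Among hybrids without line 250 it was 0.16 over 34 samples beside another line and -0.13 over 10 beside a hybrid. On slides of 2 hybrids the 2 kinds thus lay at -0.11 and -0.13. Samples on slides with an inbred line share their spots with the values that chose the members.

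Every sample of 250x250 was hybridised beside a hybrid of line 250, so the line can be set against its own hybrid on 16 slides with the slide held constant. This uses the samples that chose the members and is a description. With values of 0 as missing, 250x250 minus the hybrid was above 0 for 92 of 96 higher members, with a median of 0.39, and below 0 for 56 of the 59 lower members, with a median of -0.18. For the 45 lower members listed at 0 on slide 292, that slide gave no value and 15 slides were left. The value was below 0 for 41 of them, with a median of -0.23. Over all candidates the median was -0.01, with 48.5% above 0. Among named members it was 0.63 ± 0.74 (SD, n = 16) for AI942048, above 0 on 14 slides, and 0.53 ± 0.71 (SD, n = 16) for AI603703, above 0 on 12. For AI855198 it was -0.18 ± 0.52 (SD, n = 16), below 0 on 12 slides. By the dyes in the titles, the list median of the higher members was above 0 on 8 of 8 slides with 250x250 in Cy5 and on 4 of 8 with it in Cy3. By the dyes in the label field, which differ on slides 941 and 945, it was above 0 on 8 of 10 and on 4 of 6. The part of the dye was not tested.

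The question whether line 250 passes its level on to its hybrids was put to slides that carry 2 hybrids and no inbred sample, which took no part in choosing the members. There were 6 such slides with line 250 and 5 without, and the mean of both channels was 1 value. limma found none of the 10829 candidates higher (0%) and none lower (0%) at an adjusted p under 0.05 after Benjamini-Hochberg adjustment over all of them, and no adjusted p lay below 0.9997. No other tool was run. Slides 37, 44, 46 and 61 lie in the lowest range of slide numbers, which holds no slide of the other hybrids. With the range as a block, the comparison rests on slides 295 and 560, both of the cross with line 002, against slides 301 and 471. The crosses with lines 005 and 301 add nothing to this difference. In it 1.39% of candidates were called, all lower in the hybrids of lines 250 and 002. None of the higher members was among them, but 8 lower members were, all listed at 0 on slide 292. They included AI734304 (-3.69 ± 0.53 SE, adjusted p = 0.0030 in limma), AI947513 (-3.24 ± 0.66 SE, adjusted p = 0.027 in limma), AI600503 and AI947883. The others were AI586570, AI649659, AI600966 and AI714926, named after their values were seen. Without adjustment, 54 candidates were higher (0.499%) and 315 lower (2.91%) at p under 0.05, among them 0 higher members on the higher side, 3 higher members on the lower side and 5 lower members on the lower side. The groups did not overlap on 1 member, AI734391, a higher member that was different by -0.90 in hybrids with line 250 and is singled out after its values were seen, where 0.0923% of candidates did not overlap on the lower side and 0.0831% on the higher side. The median SE of a difference was 0.34, so a difference of about that size was not detectable with this number of slides. Larger differences also went uncalled. AI600503 at -1.94 and AI947883 at -1.79 had an adjusted p of 0.9997 in limma. Members deviated by only 0.545 to 1.16 in absolute size in 250x250. The lack of calls therefore does not tell whether line 250 passes its level on.

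The higher members gave no common direction in that comparison. Of 96, 47 were above 0 with a median difference of -0.03, where all candidates had 47.5% above 0 and a median of -0.02. AI603703 stood at 1.54 on slide 37, 1.06 on slide 44, 0.51 on slide 46, 0.99 on slide 61, 1.28 on slide 295 and 1.80 on slide 560 in hybrids with line 250. In hybrids without it the level was 0.27 on slide 301, 1.16 on slide 471, 2.11 on slide 919, 0.97 on slide 995 and 0.61 on slide 996. The levels with line 250 lay within the span of those without it, and the difference was 0.17 ± 0.34 (SE). Over the 10 largest positive deviations the differences ran from -0.62 for AI491658 to 0.54 for BM073284.

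Of the lower members, 26 of the 59 not listed at 0 were above 0, with a median difference of -0.04. AI855198 was at 2.22, 2.88, 2.46, 2.43, 1.57 and 2.12 on slides 37, 44, 46, 61, 295 and 560 with line 250. On slides 301, 471, 919, 995 and 996 without it the levels were 2.83, 2.13, 2.56, 0.78 and 2.56. The groups overlapped, and the difference was 0.11 ± 0.36 (SE), not in the direction of its deviation. The 45 listed at 0 on slide 292 differed from these: 44 were below 0, with a median of -0.48. The 797 other candidates listed at 0 on slide 292 had a median of -0.45 in the same comparison, with 93.5% below 0, although slide 292 was not in it. The 551 candidates of the same 4 print blocks that were not listed at 0 had a median of -0.34, and candidates of the other blocks 0.02. The lower values of the 45 were thus found over their whole print blocks, and with print block medians subtracted their median was -0.18. With all hybrid samples and the slide as a random block, the median of the 59 was -0.55 and that of the higher members 0.11, but most of these samples shared a slide with an inbred line.

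**Figure D4:**
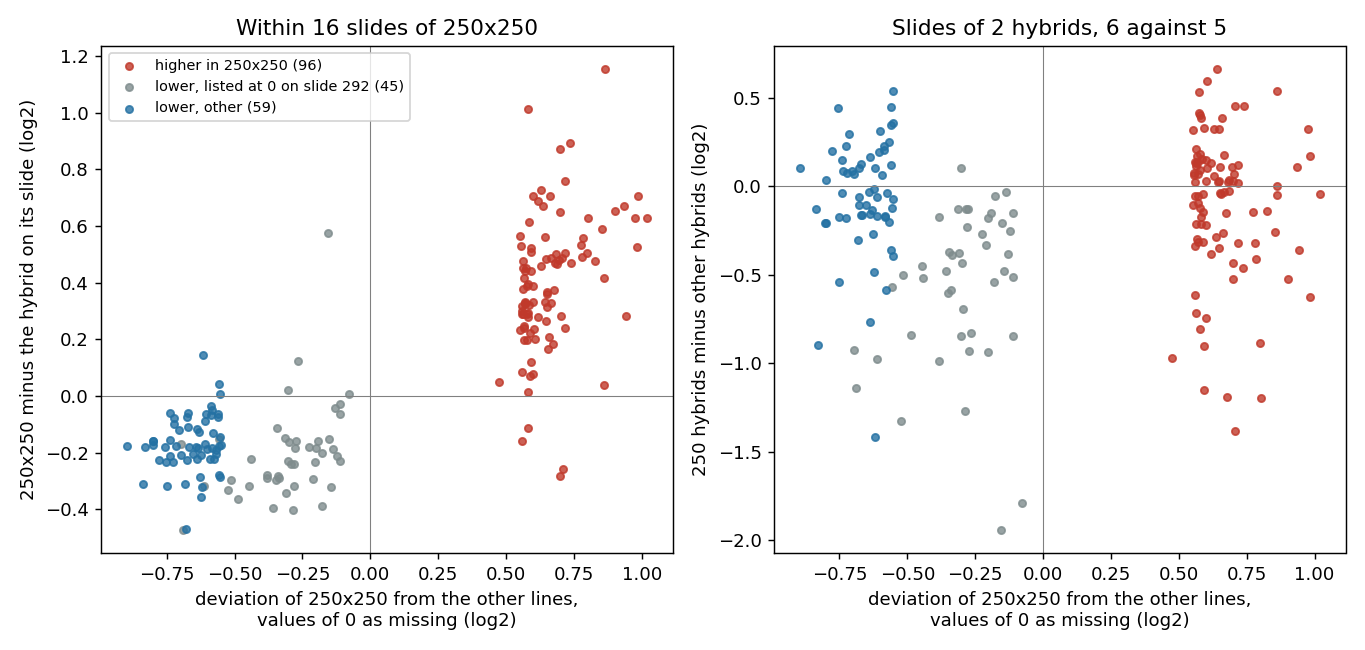
Each point is 1 member, with the deviation of 250x250 from the other lines on the horizontal axis (log2, values of 0 as missing, the values that chose the members). Left, the vertical axis is the mean of 250x250 minus the hybrid on the same slide, where higher members lie at a median of 0.39 and the 59 lower members at -0.18; right, it is the difference between 6 slides of hybrids with line 250 and 5 slides of other hybrids, where they lie at -0.03 and -0.04.

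The 3 crosses of line 250 gave different values from each other. Their channels also differed in spread. The SD over spots was 1.18 to 1.19 in the cross with line 002, 1.27 to 1.29 with line 005 and 1.55 to 1.56 with line 301. On the 5 slides of other hybrids it was 1.24 to 1.45. The list medians below had only column medians subtracted, and the part of the spread in them was not tested. The median of the higher members was 0.06 in the cross with line 002, -0.43 in the cross with line 005 and 0.25 in the cross with line 301, each against the same 5 slides of other hybrids. The 59 lower members stood at 0.17, 0.24 and -0.53 in that order, so the cross with line 301 alone had the direction of line 250 in both list medians. Single slides outside that cross had both directions too, each against the mean of the 5 slides. Slide 295 of the cross with line 002 gave 0.15 for the higher members and -0.32 for the 59. Slide 919, which held no line 250, gave 0.45 and -0.30. These medians were not set against those of all candidates. In that cross more candidates were lower (9.57%) than higher (3.17%) at an unadjusted p under 0.05 in limma. No candidate was called in the crosses with lines 005 and 301 (0% in each direction), where the smallest adjusted p in limma was 0.185 and 0.357. At an unadjusted p under 0.05, 369 candidates were higher (3.41%) and 429 lower (3.96%) in the cross with line 005, and 343 (3.17%) and 1036 (9.57%) in the cross with line 301. In the cross with line 301 these held 7 higher members that were higher and, on the lower side, 1 of the 59 and 10 of the 45. The share of the 59 was thus below the 9.57% of all candidates. Members called in the opposite direction, and those in the other crosses, are not counted here, so these counts do not set this cross apart. The slides of the crosses with lines 301 and 005 all had numbers in the lowest range, which held no slide of other hybrids, so in these crosses slide range and genotype cannot be told apart.

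In the cross with line 002, 194 candidates were lower (1.79%) and none higher (0%) at an adjusted p under 0.05 in limma, with 1.24% higher and 7.3% lower at an unadjusted p under 0.05. Without slide 295 the share called was 0.508%, and without slide 560 it was 2.98%. The called members were 3. AI600503 differed by -5.78 ± 0.33 (SE, adjusted p = 4.7e-07 in limma) and AI947883 by -2.91 ± 0.48 (SE, adjusted p = 0.0040 in limma), both lower members listed at 0 on slide 292. AW438141 differed by -2.78 ± 0.66 (SE, adjusted p = 0.045 in limma), opposite to its higher level in 250x250. The call of AI947883 was lost without slide 295 (adjusted p = 0.157 in limma), and that of AW438141 without any one of slides 44, 46, 295, 919, 995 and 996, with column medians left in and with print block medians subtracted. The test among the 3 crosses called 82 candidates (0.757%), 1 of them a member, AI600503 (adjusted p = 3.5e-06 in limma). At an unadjusted p under 0.05 it held 2200 candidates (20.3%), with 19 of the 96 higher members and 36 of the lower ones.

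AI600503 was at -1.14 and -0.58 on slides 295 and 560 of that cross. On the other slides of 2 hybrids it stood between 4.36 and 5.30, so the groups were far apart. The same drop was present on slides of other genotypes. Over the 74 slides on which it was not listed at 0, both channels were below a level of 2 on 15, both at or above it on 57, and 1 of the 2 on 2, with the limit set after the values were seen. Samples of 9 genotypes lay on the 15 slides, 5 of them without line 250. All of the 15 except slides 28 and 302 held a genotype with line 002. Other slides with line 002, such as 26, 29, 506 and 921, had both channels above 2. The part of line 002 was not tested. Of 28 slides numbered 273 to 561, 12 were among the 15, against 3 of 46 slides with other numbers. The low level of this spot thus came in both channels of a slide together, in genotypes with and without line 250.

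**Figure D5:**
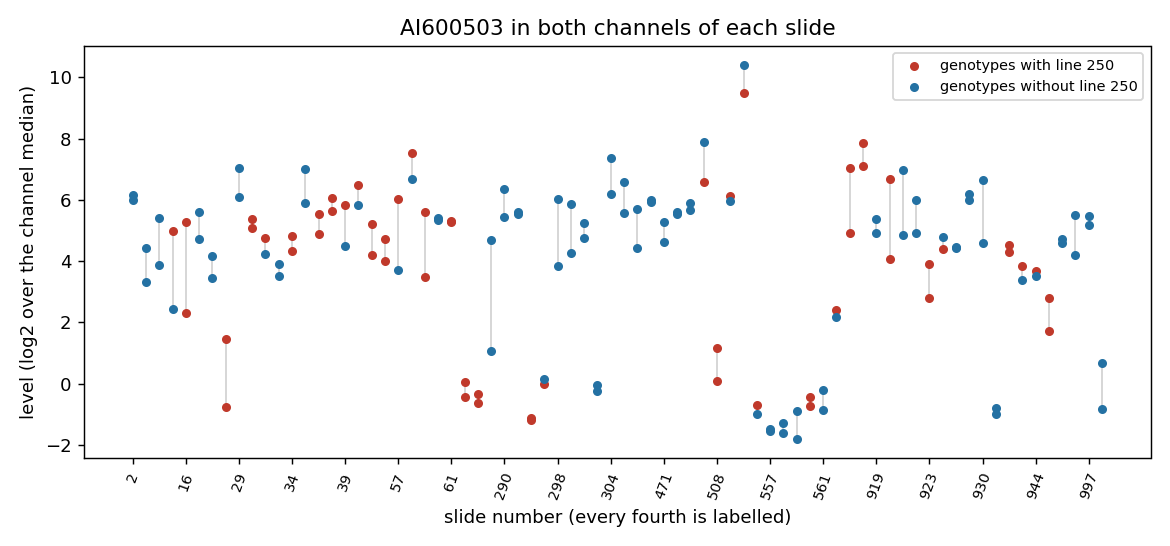
Each point is 1 channel, giving the level of AI600503 (log2 over the channel median) by slide in order of slide number, with a grey line joining both channels of a slide and colour marking genotypes with and without line 250; slides listed at 0 are left out. Levels below 2 occur in both channels together on 15 of the 74 slides, 12 of them between slides 273 and 561, in genotypes with and without line 250.

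A pair of reciprocal hybrids has the same parents with the roles of mother and father exchanged. On the 6 slides of 2 reciprocal hybrids, the hybrid with 250 named first was set against the one with 250 named second, with the dye as a term. limma called no candidate in either direction (0%), and no adjusted p was below 0.96. Unadjusted, 1.51% of candidates were higher and 2.25% lower at a p under 0.05, and of the 96 higher members 1 was higher and 25 were lower. The list median of the higher members was -0.28, against 0.01 for all candidates. By slide it was -0.79 on slide 37, -0.34 on slide 560, -0.21 on slide 295, -0.12 on slide 44, -0.06 on slide 46 and 0.03 on slide 61, so 5 of 6 slides lay below 0. AI738321 differed by -0.78 ± 0.24 (SE), AI491516 by -0.48 ± 0.13 (SE) and AI603703 by -0.51 ± 0.15 (SE), none past the adjusted threshold (adjusted p = 0.96 each in limma). The 59 lower members had a median of 0.00, with 29 above 0, and the 45 listed at 0 on slide 292 a median of 0.21. In the plot by genotype, the same order holds in each pair: the higher members lay lower in 250x002, 250x005 and 250x301 than in 002x250, 005x250 and 301x250. These samples include the slides just tested, so this is no separate support. The other samples all shared a slide with an inbred line, and so shared spots with the values that chose the members. Both hybrids of a pair also lie on partly different slides.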

How the data were processed

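cDNA arrays read in 2 colours measured RNA of 2 samples on each of 84 slides, grouped by the genotype in their titles. Per the deposited notes, each channel was scanned up to 6 times at rising gain, and the scanner tables hold linear spot intensities, unnormalized. The authors took 1 scan per channel and normalized it to the deposited log2 values, by a method not named in the labels or notes. Any background subtraction is not stated. From these log2 values column medians were subtracted and 8 slides left out. Members and lists were chosen with earlier results of these data known.

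Hybrids were compared with limma 3.58.1 (R 4.3.3), 6 slides with line 250 against 5 without, with Benjamini-Hochberg adjustment over 10829 spots and calls at an adjusted p under 0.05. The fit was tested on simulated data. Each sample is an independent biological replicate per the series text. Named members are the 10 with the largest deviation in each direction, members called in any of the designed fits, the last one in and those with a gene name. The first spot outside the list is named too, and members called only in an alternative are named after their values were seen. Alternatives covered slides, normalization, print blocks, weights and the scanner tables. Identifiers were paired with the value table by row number. The 11 identifiers printed 12 times had a median SD of the level of 0.417, against 1.18 over all spots. Those on 2 or 3 spots agreed only in part (rank correlation 0.226 over 402 identifiers). The pairing of identifiers found on 1 spot, as all members are, was not tested. The intensities in the scanner tables, which also hold the identifiers, had to be put into another row order to match the value table. The labels name another dye than the titles for some samples, none in the reciprocal comparison and 250x250 on slides 941 and 945 among them. 18 scanner columns of slides that match no sample were not used.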

Additional observations from a re-analysis of the deposited data

Results flagged for a closer look

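Among 86 groups of 4 to 10 values examined, 5 held a sample far from the others, where chance gives about 1 in 20 groups. BM073284 stood at 0.534 on slide 46, against a median of 2.23 over the 6 slides of 2 hybrids with line 250. The list median of the higher members was 0.40 in the 005x301 sample of slide 4, against a median of -0.19 over that genotype, and 1.79 in the 301x250 sample of slide 918, against 0.43. The 250x250 sample of slide 918 was also the highest of its genotype, at 1.78. For the 45 lower members listed at 0 on slide 292, with values of 0 as missing, the list median was 0.491 in the 250x301 sample of slide 31, against -0.49, and -0.906 in the 301x250 sample of slide 37, against -0.22.

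AI600503 differed among the 3 crosses of line 250 in the test of that difference (adjusted p = 3.5e-06 in limma), with differences from the other hybrids of -5.78 in the cross with line 002, -0.38 with line 005 and 0.34 with line 301.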

How the results depend on the processing

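Of the members, 76% stayed with no slide dropped and 92% with the brightest spots kept in. Fewer stayed with column medians not subtracted (60%), quantile normalization (48.5%), medians over samples (38%), print block medians subtracted (28.5%) and means over ranges of slide numbers (32.5%). Leaving out single 250x250 samples kept 51% to 88%, the lowest without replicate 77 on slide 292. Of the alternatives chosen after seeing the data, values of 0 as missing kept 78.5%, leaving out both channels of slide 292 kept 51%, and values of 0 as missing with print block medians subtracted kept 57%.

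The share of candidates called between hybrids with line 250 and the others, 0%, became 0.00923% with all hybrid samples and the slide as a random block (1 spot, AW037023, a lower member). It became 1.39% with the slide range as a block, where the difference rests on the cross with line 002 alone. Of these candidates, 8 were members listed at 0 on slide 292. Without single slides the share was 0% to 0.0369%, the latter without slide 61 and with no member. The 1.79% called in the cross with line 002 became 0.997% with column medians not subtracted, 1.11% with print block medians subtracted and 0.508% to 2.98% without single slides. Without single slides the cross with line 005 gave 0% to 0.194% (slides 44 and 46, and 0.00923% without slide 919) and the cross with line 301 gave 0% to 0.0369% (slide 37, and 0.0185% without slide 61). The 0.757% called among crosses became 1.32% with column medians not subtracted, 1.19% with quantile normalization and 0.231% to 1.69% without single slides (slides 295 and 560). The cause was not tested. The reciprocal comparison had 0 calls in each alternative run. With column medians not subtracted, the median difference between the 2 kinds of hybrids was 0.52 over all candidates and 0.51 over the higher members. Within ranges, slide 295 minus slide 301 gave 0.30 for the higher and -0.91 for the lower members, and slide 560 minus slide 471 gave 0.18 and -0.16. Of 649 recomputed deviations of 25 named members, 6 changed sign, and of 1900 recomputed differences 9 lost and 9 gained a call. No paired analysis was possible because the genotypes share no replicate numbers, apart from the pairing by slide that the reciprocal comparison and the comparison of 250x250 with its hybrid already use.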

Other observations

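Identifiers beginning with AI made up 62% of the members and 49% of the candidates. They were carried by 61 of the 96 higher members and by 63 lower members. Those 63 include all 45 lower members listed at 0 on slide 292, so the share of AI rests in part on that slide. The share without these 45 was not tested. Identifiers beginning with BG made up 2.5% of the members (5 of 200) and 9.14% of the candidates. Those beginning with BM made up 7% of the members (14 of 200) and 12.6% of the candidates. Of these 14 members, 12 were higher in 250x250, and the direction over all candidates beginning with BM was not counted. The lists drawn up in the same way for the other lines had larger deviations, with medians of 1.17 for 002x002, 1.15 for 005x005 and 0.943 for 301x301, against 0.65 for 250x250. With values of 0 as missing, the medians were 1.13 for 002x002, 0.719 for 005x005 and 0.771 for 301x301, against 0.618 for 250x250, and 181, 56 and 59 of those 200 members stayed for 002x002, 005x005 and 301x301.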
